A study of Mus musculus with 12 samples.

Results

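The 10 genes described here mark the alveolar type 2 cell and its product, pulmonary surfactant, in the mouse lung: Sftpa1, Sftpb, Sftpc and Sftpd, which encode the surfactant proteins, and Abca3, Lamp3, Napsa, Slc34a2, Lpcat1 and Etv5. They were chosen by gene name and not by a measured value, and all 10 were found among the 35275 genes of the deposited table. Whole lungs of male wild-type C57Bl/6J mice were sequenced as poly(A) RNA at 6, 12 and 24 months of age, with lungs of 3-month mice as the youngest group. Each age had 3 mice, each analysed independently and sequenced as 1 library, and no mouse was treated or carried an altered allele. The series names the animals as NCGG mice, and as lungs were resected after death, each age is a different set of animals.

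Surfactant is a film of phospholipid and protein that lowers surface tension where air meets the alveolar wall. Type 2 cells make its lipid, pack it with SP-B and SP-C into lamellar bodies and secrete these by exocytosis, and they also renew the flat type 1 cells that cover most of the alveolar surface. SP-A and SP-D are collectins, soluble lectins that bind microbes, whereas SP-B and SP-C are small hydrophobic proteins that spread the lipid film. Of the 10 genes, Sftpa1 (ENSMUSG00000021789, chr14:41131782-41136452), Sftpd (ENSMUSG00000021795, chr14:41172212-41185198) and Sftpc (ENSMUSG00000022097, chr14:70520941-70524081) lie on 1 chromosome, on build mm10, as do Lamp3 (ENSMUSG00000041247, chr16:19653381-19706365) and Etv5 (ENSMUSG00000013089, chr16:22381309-22439719). The others are Sftpb (ENSMUSG00000056370, chr6:72304610-72314371), Abca3 (ENSMUSG00000024130, chr17:24351950-24410201), Napsa (ENSMUSG00000002204, chr7:44572432-44586862), Slc34a2 (ENSMUSG00000029188, chr5:53038082-53071664) and Lpcat1 (ENSMUSG00000021608, chr13:73467197-73516422). In whole lung RNA, fewer type 2 cells and less RNA per type 2 cell cannot be told apart.

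Promoter windows are shown for 3 of the genes because these went in different directions at 24 months by the reads as counted: Sftpb was higher, and Sftpa1 and Lamp3 were lower. The windows, from RefSeq on GRCm38.p6, run from 250 bases before to 50 bases after the annotated start, in the direction of transcription. Capitals mark matches, on either strand, to CTCAAG (the core bound by NKX2-1, the lineage factor of lung epithelium), TGTTTNC (forkhead factors) and CAGGAAG (ETS factors such as ETV5).
Sftpb, chr6:72304360-72304659, plus strand: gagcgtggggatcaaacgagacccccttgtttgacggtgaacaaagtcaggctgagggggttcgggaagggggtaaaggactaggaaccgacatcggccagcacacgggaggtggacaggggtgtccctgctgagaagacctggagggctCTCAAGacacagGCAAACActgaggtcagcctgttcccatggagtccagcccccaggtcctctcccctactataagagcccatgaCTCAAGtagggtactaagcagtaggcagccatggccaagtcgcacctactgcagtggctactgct
Sftpa1, chr14:41131538-41131837, plus strand: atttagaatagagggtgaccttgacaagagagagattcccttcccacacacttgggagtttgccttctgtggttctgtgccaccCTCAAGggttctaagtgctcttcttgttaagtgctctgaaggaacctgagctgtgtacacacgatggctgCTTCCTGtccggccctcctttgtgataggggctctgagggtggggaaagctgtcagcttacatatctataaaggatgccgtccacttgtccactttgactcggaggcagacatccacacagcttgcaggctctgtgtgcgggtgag
Lamp3, chr16:19706316-19706615, minus strand: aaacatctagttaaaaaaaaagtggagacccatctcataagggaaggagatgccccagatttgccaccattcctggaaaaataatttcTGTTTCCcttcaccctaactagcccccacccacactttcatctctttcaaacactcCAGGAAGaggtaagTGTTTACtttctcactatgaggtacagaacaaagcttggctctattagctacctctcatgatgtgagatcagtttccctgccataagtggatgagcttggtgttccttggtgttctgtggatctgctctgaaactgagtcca
The Sftpb window held CTCAAG at positions -100 and -15 from the start and a forkhead match at -88. The Sftpa1 window held CTCAAG at -166 and an ETS match at -96, and the Lamp3 window held forkhead matches at -162 and -92 and an ETS match at -106. Among all 32851 windows of this length, CTCAAG was in 15.9%, the forkhead motif in 20.5% and the ETS motif in 13.3%. A further motif, TTGCNNAA for C/EBP factors, was in 10.8% of all windows and, among the 8 windows of 7 of the genes, in that of Slc34a2. None of the 4 motifs was in the windows of Abca3 and Lpcat1, and 1 of 2 Etv5 windows held a forkhead match. No windows were used for Sftpc, Sftpd and Napsa. The GC content of the window was 58.3% for Sftpb, 52.0% for Sftpa1 and 43.7% for Lamp3.

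The libraries held 14.7 to 21.2 M gene reads, and the 24-month libraries stood apart from the younger ones in composition. The GC content of the transcripts, weighted by reads, was 54.1 to 55.8% at 24 months, against 50.1 to 51.5% at the younger ages. Mitochondrially encoded genes held 0.443 to 0.629% of reads at 24 months, against 1.65 to 1.95% at 3 months, and 17533 to 18513 genes had a read at 24 months, against 20175 to 20625 at 3 months. Within the ages, 24-month mouse 3 had the highest GC content of all libraries and the fewest genes with a read, and 12-month mouse 3 had the highest mitochondrial share, 3.12%. Age and these properties cannot be told apart at 24 months, so fold changes are given in 2 ways: from the reads as counted, and from a fit with an offset that removes, library by library, the part of the read count that follows a gene's GC content and length. That part made up 68.2% of the variance among genes of the 24-month fold changes, 31.3% at 12 months and 11.5% at 6 months.

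The identity of the tissue matched its label: all 10 genes were read in every library. Per kilobase of gene length (the authors' FPKM), Sftpc was the most abundant of the 10 at every age, with a mean of 23521 FPKM in 3-month lungs. Its level was 7.47 times that of Sftpb, 3148 FPKM, and the ranges of these neighbours did not overlap. Sftpa1 followed with 1636, Sftpd with 777 and Slc34a2 with 700 FPKM, the last pair with overlapping ranges. Napsa (200 FPKM) and Lamp3 (187 FPKM) overlapped, Lpcat1 had 164 FPKM, Abca3 74.2 and Etv5 56.0, and the last pair overlapped. In 24-month lungs Sftpc still led with 20788 FPKM, ahead of Sftpb with 4633, while Sftpa1, Sftpd, Slc34a2 and Napsa lay between 359 and 441 FPKM and each overlapped its neighbour in the order. Lamp3 had moved to the last place at 24 months, with 14.2 FPKM. Sftpa1 has a coding transcript of 851 bases besides that of 2854 bases used for its FPKM. With the short length its 3-month level would be 5486 FPKM, above Sftpb.

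Together the 10 genes held 3.49 ± 0.16% of gene reads at 6 months, 4.22 ± 0.19% at 12 months and 2.99 ± 0.48% at 24 months, against 3.46 ± 0.24% at 3 months (mean ± SD, n = 3 each). Sftpc alone held 2.67 ± 0.09% at 12 months and 1.67 ± 0.28% at 24 months, against 1.89 ± 0.25% at 3 months. The next largest shares differed less between 12 and 3 months. Sftpb held 0.530 against 0.488%, Sftpa1 0.495 against 0.467% and Slc34a2 0.219 against 0.292%. The 12-month shares of the 10 genes together lay above those of every 3-month and 6-month mouse, 4.06 to 4.44% against 3.19 to 3.61%. Leaving out mitochondrially encoded reads gave 4.32% at 12 months and 3.01% at 24 months, against 3.53% at 3 months.

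**Figure D1:**
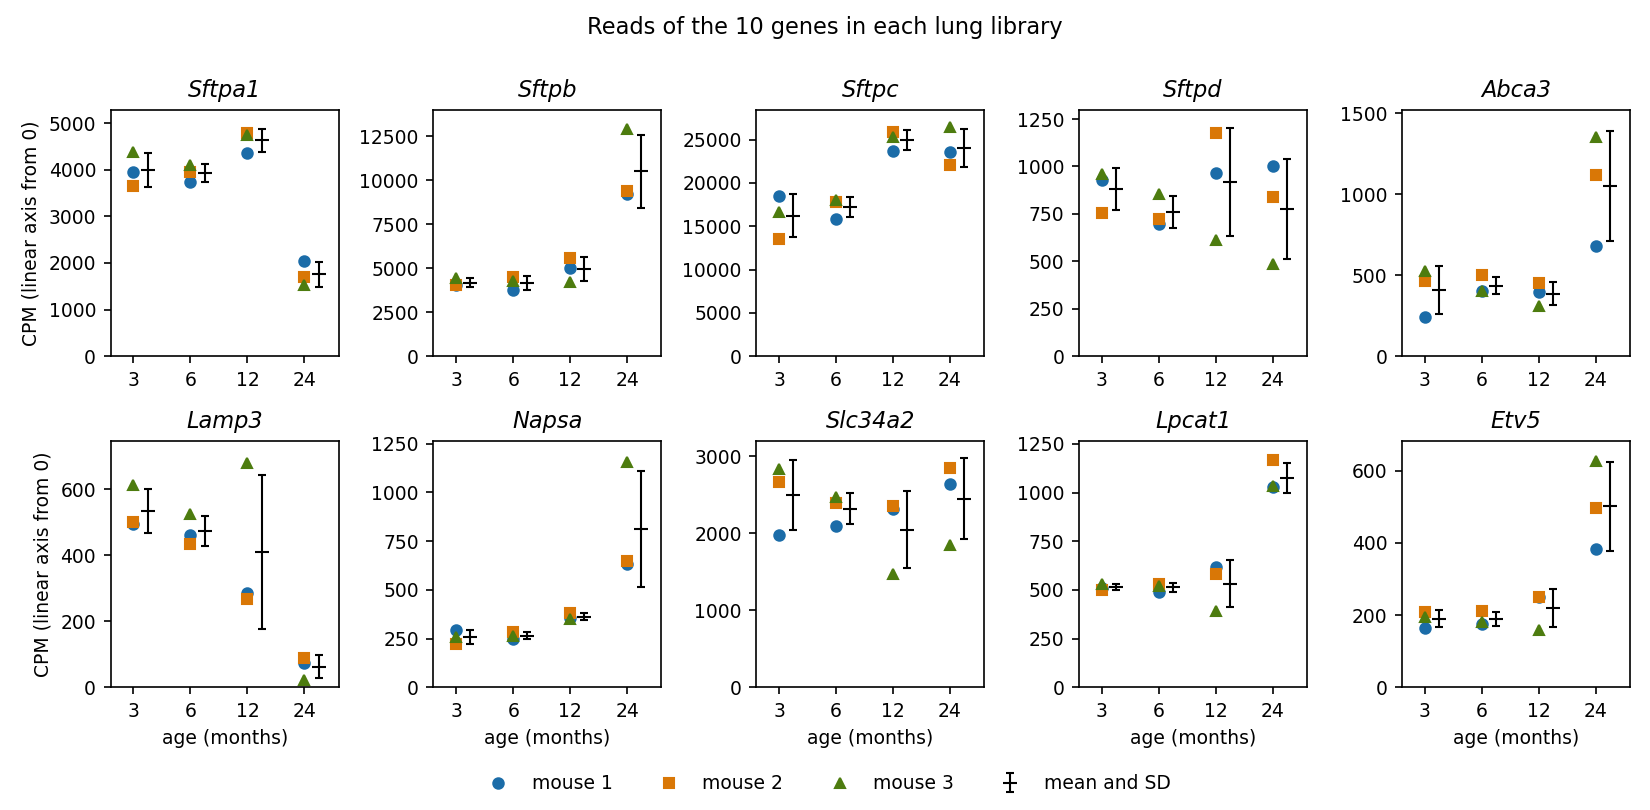
Normalised reads (CPM, reads per M of the TMM-scaled library; linear axes from 0) of each gene in each of the 12 lungs by age in months, with the mean and SD of 3 mice in black. Sftpb, Abca3, Napsa, Lpcat1 and Etv5 are highest in all 3 mice at 24 months, Sftpa1 and Lamp3 are lowest there, and Sftpd and Slc34a2 overlap between the ages.

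In 24-month lungs, 8 of the 10 genes differed from 3-month lungs by the reads as counted, 6 higher and 2 lower (edgeR quasi-likelihood test, Benjamini-Hochberg adjusted p under 0.05 over 16042 genes). Of all genes tested, 82.8% were called, 38.2% higher and 44.6% lower, so the number of members called was close to that of genes at large. Their median log2 fold change was 0.82, against -0.29 over all genes, and a gene with a value of 0 was thus already above the middle of the table. The authors' deposited table marks the same number, 8, with 6 higher and 2 lower. The 3 mice of each age did not overlap for 8 of the 10, against 84.4% of all genes.

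Among the surfactant proteins, Sftpb had 9212, 9412 and 12890 CPM in the 24-month mice, against 4031, 4028 and 4454 CPM in the 3-month mice. Every 24-month value was above every younger one, and the log2 fold change was 1.33 ± 0.20 (SE; edgeR adjusted p = 1.4e-05). Sftpa1 went the other way: it had 2043, 1688 and 1530 CPM at 24 months, against 3944, 3653 and 4390 CPM at 3 months (-1.19 ± 0.18, edgeR adjusted p = 2.0e-05). Its 24-month values were below those of all 9 younger mice. Sftpc, whose product is made by type 2 cells alone, had 23564, 22068 and 26461 CPM at 24 months, against 18457, 13537 and 16609 CPM at 3 months (0.57 ± 0.18, edgeR adjusted p = 0.0078). This call was lost, with values of 0.34 to 0.35, when 3-month mouse 3, 12-month mouse 1 or any 6-month mouse was left out (edgeR adjusted p = 0.099 to 0.14), and when the fit held these 2 ages only (0.55, edgeR adjusted p = 0.086). In the fits without those mice the median of all genes also moved, to between -0.52 and -0.51. Sftpd, with 1005, 838 and 486 CPM at 24 months and 929, 757 and 962 CPM at 3 months, overlapped between the ages (-0.18 ± 0.27, edgeR adjusted p = 0.54). An interval of 2 SE on either side spans -0.73 to 0.37, so the data do not settle the sign of a change within these bounds.

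Of the genes that build and fill the lamellar body, Lamp3 had the largest fold change of the 10. LAMP3 is a glycoprotein of the lysosomal and lamellar body membrane. Lamp3 had 74.2, 90.3 and 23.4 CPM in the 24-month mice, against 493, 500 and 612 CPM in the 3-month mice (-3.09 ± 0.44, edgeR adjusted p = 8.5e-06). Without 24-month mouse 3, the lowest, the value was -2.70. Abca3, the lipid transporter of the lamellar body membrane, had 681, 1118 and 1354 CPM at 24 months, against 242, 465 and 524 CPM at 3 months (1.36 ± 0.30, edgeR adjusted p = 0.00059). The lowest value belonged to 3-month mouse 1, without which the fold change was 0.86. Napsa encodes napsin A, an aspartic protease that processes the SP-B precursor. It had 634, 648 and 1157 CPM at 24 months, against 292, 225 and 259 CPM at 3 months, and all 3 older mice were above the younger ones (1.65 ± 0.24, edgeR adjusted p = 1.0e-05).

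The 3 remaining genes belong to lipid remodelling, phosphate uptake and transcription. Lpcat1, the acyltransferase that makes the dipalmitoyl phosphatidylcholine of surfactant, had 1030, 1167 and 1033 CPM at 24 months, against 510, 502 and 530 CPM at 3 months (1.07 ± 0.20, edgeR adjusted p = 0.00014). Etv5, an ETS factor that keeps mouse type 2 cells in their differentiated state downstream of FGF and Ras signals, had 382, 496 and 627 CPM at 24 months, against 165, 210 and 195 CPM at 3 months (1.40 ± 0.24, edgeR adjusted p = 5.3e-05). Slc34a2, the sodium phosphate cotransporter that retrieves phosphate from alveolar fluid, had 2634, 2849 and 1850 CPM at 24 months and 1981, 2666 and 2839 CPM at 3 months. The ranges overlapped and no change passed the test (-0.03 ± 0.24, edgeR adjusted p = 0.91). Annotated genes on the opposite strand overlap Abca3, Napsa and Slc34a2, and the labels and file headers do not say whether counting used the strand, so reads of such pairs cannot be told apart. The overlapping genes had at most 109, 2 and 41 reads in a library.

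The size and for some genes the direction of these differences depended on the scale. TMM set the scale by factors of 0.521 to 0.826 for the 24-month libraries, against 1.15 to 1.20 for the 3-month libraries, which raises every 24-month value relative to a plain share of reads. With library totals as the scale, an alternative chosen after seeing the data, the median log2 fold change of all genes was -1.001 in place of -0.29, and 4230 genes were called higher and 8544 lower, in place of 6128 and 7149. On that scale 7 of the 10 genes were called, 3 higher and 4 lower. Sftpb (0.56), Napsa (0.84) and Etv5 (0.61) were higher, and Sftpa1 (-1.89) and Lamp3 (-3.72) were lower, as with TMM. Sftpc changed sign and was not called (-0.18, edgeR adjusted p = 0.34). Sftpd (-0.84, edgeR adjusted p = 0.030) and Slc34a2 (-0.72, edgeR adjusted p = 0.029) were called lower, while Abca3 (0.56, edgeR adjusted p = 0.065) and Lpcat1 (0.34, edgeR adjusted p = 0.17) were not called. Of the 10 genes, Sftpa1 and Lamp3 alone lay below the median of all genes on this scale.

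The order of the fold changes followed the GC content of the longest annotated transcript. Lamp3 has the lowest GC content of the 10, 38.7%, and Sftpa1 has 44.0%, the second lowest. Slc34a2 (49.4%) and Sftpd (49.97%), which were not called, lie next to the median of all tested genes, 49.9%. For Sftpd the longest transcript is one with a retained intron, and its coding transcript has 54.04%. The short coding transcript of Sftpa1 has 52.88%. Where Sftpd and Sftpa1 stand in the order of GC content thus depends on the transcript used. The 6 genes that were higher have 51.8 to 58.6%, with Sftpb at the top. Over the 10 genes Pearson's r between log2 fold change and GC content was 0.94 and Spearman's rho 0.81, against 0.77 and 0.80 over 15949 genes. These are correlations across genes that share the same 6 libraries, and genes are not replicates. Among all genes with 38 to 40% GC the median log2 fold change was -2.63 (574 genes), and among those with 58 to 60% it was 2.14 (840 genes). Sftpb, at 1.33, and Sftpc, at 0.57, lay below the middle of genes of like GC content, and Sftpa1 and Etv5 lay above it. Slc34a2 (-0.03) and Sftpd (-0.18) also lay above the median of genes with 48 to 50% GC, which was -0.80 (1734 genes). Both were within the 25th to 75th percentile of those genes, -1.68 to 0.20. Sftpd stands at the edge of the next bin, 50 to 52%, where the median was 0.12.

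**Figure D2:**
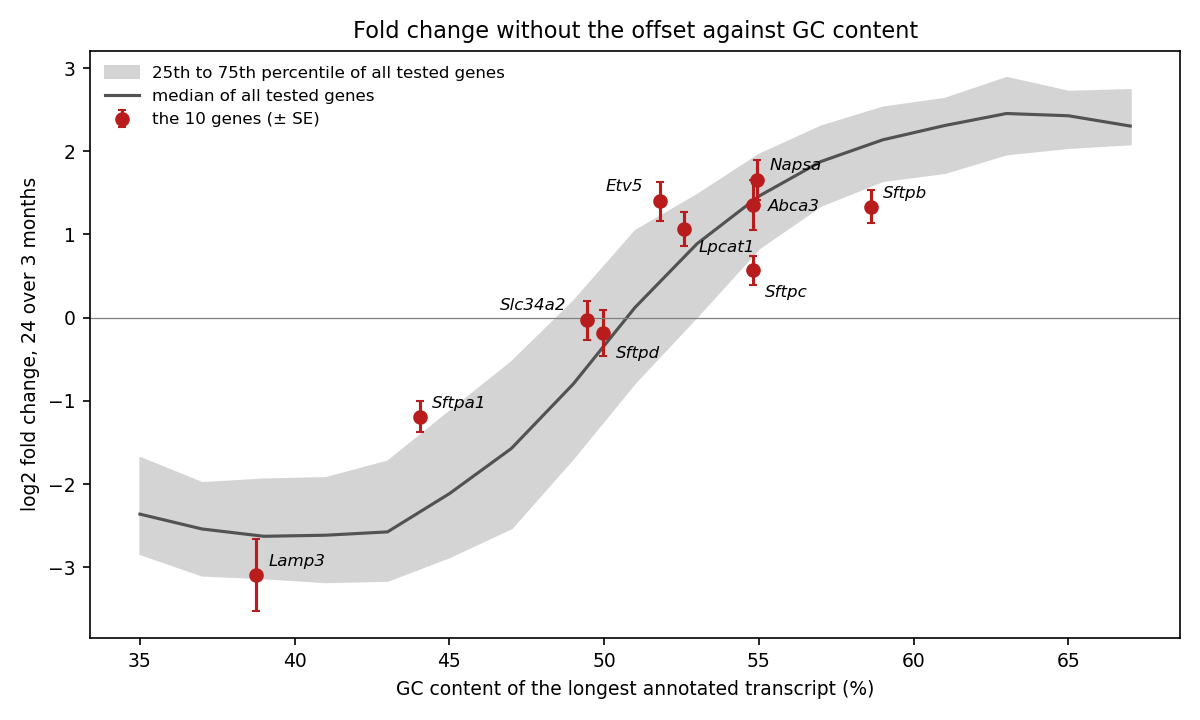
Log2 fold change of 24-month over 3-month lungs without the offset (y axis) against the GC content of the longest annotated transcript (x axis, %); red points are the 10 genes with their SE, and the grey line and band are the median and the 25th to 75th percentile of all tested genes in bins of 2 points. The 10 genes rise with GC content from Lamp3 at 38.7% to the genes near 55%, close to the grey line, with Etv5 above the band, Sftpa1 near its upper edge and Sftpb and Sftpc below it.

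With the GC and length offset, 7 of the 10 genes differed between 24-month and 3-month lungs, 5 higher and 2 lower, against 58.5% of 15949 genes, 30.3% higher and 28.2% lower. The median of the 10 was 0.29, against -0.01 over all genes. Etv5 had the largest rise, 0.99 ± 0.17 (edgeR adjusted p = 0.00021), with adjusted levels of 296, 373 and 530 CPM at 24 months, against 184, 216 and 203 CPM at 3 months. Napsa (0.40 ± 0.13, edgeR adjusted p = 0.019) and Lpcat1 (0.31 ± 0.10, edgeR adjusted p = 0.016) were also higher, by less than without the offset. Lamp3 remained lower, at -0.65 ± 0.21 (edgeR adjusted p = 0.018) in place of -3.09. Its adjusted levels were 215, 249 and 120 CPM at 24 months, against 291, 291 and 346 CPM at 3 months. Leaving out 1 mouse ended some of these calls: Lamp3 had -0.57 (edgeR adjusted p = 0.065) without 3-month mouse 3 (and -0.41, still called, without 24-month mouse 3), Napsa 0.35 (0.076) without 3-month mouse 2 and 0.24 (0.071) without 24-month mouse 3, and Lpcat1 0.27 without 3-month mouse 2 (0.069) or 24-month mouse 2 (0.059). Etv5 kept its call in all 12 such fits.

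For the most abundant surfactant genes the offset turned the direction. Sftpb was lower with it, at -0.52 ± 0.15 (edgeR adjusted p = 0.0082), with adjusted levels of 5049, 4704 and 3607 CPM at 24 months, against 5428, 6589 and 7110 CPM at 3 months. Sftpa1 was higher with it, at 0.89 ± 0.14 (edgeR adjusted p = 0.00012), but this value depends on the transcript used. With the mean GC content of both Sftpa1 transcripts it was -0.01 (edgeR adjusted p = 0.97), and with the short transcript of 52.9% GC it was -1.77 (edgeR adjusted p = 7.4e-07). Sftpc was not called, at -0.22 ± 0.11 (edgeR adjusted p = 0.11). Slc34a2 was higher, at 0.71 ± 0.14 (edgeR adjusted p = 0.00054), although with the mean GC content of its transcripts it had 0.32 (edgeR adjusted p = 0.056). Abca3 was not called (0.26 ± 0.17, edgeR adjusted p = 0.21), whereas with the mean GC content it was (0.84, edgeR adjusted p = 0.0018). Sftpd had -0.03 ± 0.22 (edgeR adjusted p = 0.92), and -1.01 (edgeR adjusted p = 0.0040) with its longest coding transcript. Thus the sign was the same with and without the offset, under each definition of GC content tried, for the called genes Etv5, Napsa, Lpcat1 and Lamp3, and Sftpb was lower under each definition.

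**Figure D3:**
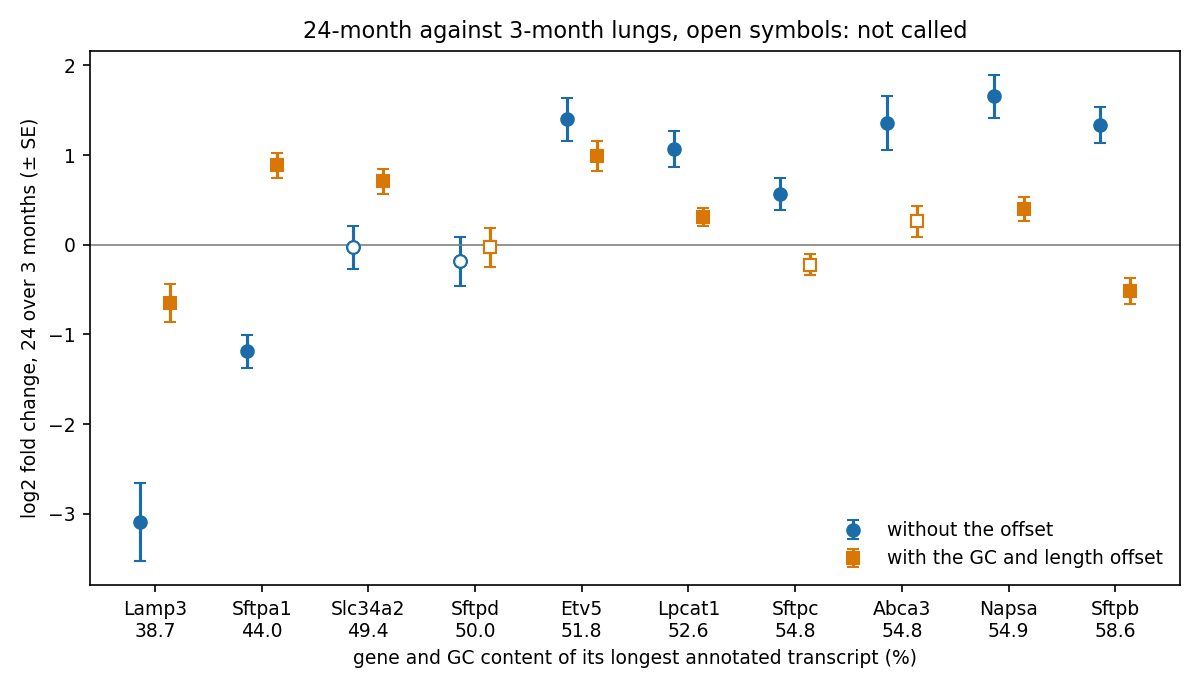
Log2 fold change of 24-month over 3-month lungs with its SE for each gene, ordered by GC content, from the reads as counted (blue circles) and with the GC and length offset (orange squares); open symbols did not pass the test. Etv5 lies near 1 in both fits, Lamp3 goes to -0.65 with the offset against -3.09 without it, and Sftpa1 and Sftpb change sides of 0.

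At 12 months the differences from 3 months were small. Of the 10 genes, 1 was called and it was higher, against 15.2% of all genes (6.3% higher and 8.87% lower). That gene was Sftpc, with 23731, 25896 and 25308 CPM in the 12-month mice, against 18457, 13537 and 16609 CPM in the 3-month mice. The groups did not overlap, and the log2 fold change was 0.62 ± 0.18 (edgeR adjusted p = 0.032). The call was lost without 3-month mouse 2 (0.50, edgeR adjusted p = 0.17) or mouse 3 (0.63, 0.11), without 6-month mouse 3 (0.62, 0.053), and without 12-month mouse 1 (0.65, 0.067) or mouse 2 (0.60, 0.11). Napsa also did not overlap, with 355, 383 and 349 CPM at 12 months, against 292, 225 and 259 CPM at 3 months (0.49 ± 0.23, edgeR adjusted p = 0.15). It was called without the 24-month libraries (0.50, edgeR adjusted p = 0.018), as it is in the authors' deposited table. Groups without overlap were found for 2 of the 10 genes and for 44.4% of all genes. The other 8 genes had log2 fold changes between -0.38 (Lamp3) and 0.25 (Sftpb).

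The 12-month group held 1 mouse that differed from the others in most of these genes. Mouse 3 had 678 CPM of Lamp3, against 285 and 267 CPM in mice 1 and 2, and it had the lowest value of the 3 for Sftpb, Sftpd, Abca3, Napsa, Slc34a2, Lpcat1 and Etv5. Its GC content weighted by reads was 50.4%, against 51.4 and 51.5% in the other mice of that age. Without it Lamp3 had -0.95 against 3 months in place of -0.38. With the offset, 1 of the 10 genes was called at 12 months, against 17.7% of all genes (9.62% higher and 8.08% lower): Sftpa1, with adjusted levels of 3736, 4299 and 3190 CPM at 12 months, against 2599, 2444 and 2854 CPM at 3 months (0.51 ± 0.14, edgeR adjusted p = 0.027). This call was lost, with values of 0.40 to 0.57, when any of the 3-month mice or 12-month mouse 1 or 2 was left out (edgeR adjusted p = 0.052 to 0.12), and also with the mean GC content of its transcripts. Sftpc had 0.30 ± 0.11 (edgeR adjusted p = 0.082). Etv5 had adjusted levels of 255, 250 and 233 CPM at 12 months, against 184, 216 and 203 CPM at 3 months, without overlap (0.29 ± 0.17, edgeR adjusted p = 0.24), and it was called when the 24-month libraries were left out as well (0.30, edgeR adjusted p = 0.039).

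At 6 months none of the 10 genes was called, against 0% of all genes (0 of 16042 by edgeR, which gave 267 an unadjusted p under 0.05, and 6 by DESeq2). Log2 fold changes ranged from -0.22 for Sftpd to 0.09 for Sftpc, with SEs of 0.18 to 0.40. With the offset none was called, against 0.00627% of all genes. Each of the 10 genes overlapped between the 6-month and the 3-month mice.

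Of the 10 genes 7 were called, 5 higher and 2 lower, against 79.7% of all genes (37.3% higher and 42.5% lower), in the comparison of 24-month with 12-month lungs. Groups without overlap were found for 7 of the 10 and for 80% of all genes. Abca3 (1.45 ± 0.30), Etv5 (1.19 ± 0.24), Napsa (1.17 ± 0.24), Sftpb (1.09 ± 0.20) and Lpcat1 (1.02 ± 0.20) were higher, and Lamp3 (-2.71 ± 0.43) and Sftpa1 (-1.40 ± 0.18) were lower, each with an edgeR adjusted p of at most 0.00039. Sftpc, at -0.06 ± 0.18 (edgeR adjusted p = 0.78), was not called, with means of 24031 CPM at 24 months and 24978 CPM at 12 months. With the offset 5 genes were called, 3 higher and 2 lower, against 44.5% of all genes (22% higher and 22.5% lower). Sftpc was then lower at 24 than at 12 months (-0.52 ± 0.11, edgeR adjusted p = 0.0020), with adjusted levels of 18289, 16528 and 15752 CPM at 24 months, against 23090, 23607 and 25780 CPM at 12 months. Slc34a2 (0.74 ± 0.14), Etv5 (0.70 ± 0.17) and Sftpa1 (0.38 ± 0.14) were higher and Lamp3 (-0.63 ± 0.21) was lower with the offset. With the offset on the mean GC content of all transcripts Sftpa1 was instead called lower (-0.35, edgeR adjusted p = 0.030), as it was with its short transcript (-1.59, edgeR adjusted p = 3.9e-06), and Slc34a2 had 0.38 with the mean GC content. The number of members called with the offset was 8 with the mean GC content, 5 higher and 3 lower, and 7 with the longest coding transcript, 4 higher and 3 lower. Of all 15949 genes, 7213 were called with the mean GC content, 3709 higher and 3504 lower. With the longest coding transcript 6906 of them were called, 3405 higher and 3501 lower. Abca3 (0.63), Napsa (0.51) and Lpcat1 (0.64) were called with the mean GC content, and Lpcat1 (0.35) and Sftpd (-0.75) with the longest coding transcript. Sftpa1 was called in only 2 of the 12 fits that left out a mouse, those without 12-month mouse 2 or 24-month mouse 2, with values of 0.24 to 0.40 in the others (edgeR adjusted p = 0.056 to 0.17). Lamp3 was not called without 12-month mouse 3 (-0.44, edgeR adjusted p = 0.13) or 24-month mouse 3 (-0.39, 0.063). Both comparisons of 24-month lungs use the same 24-month libraries.

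**Figure D4:**
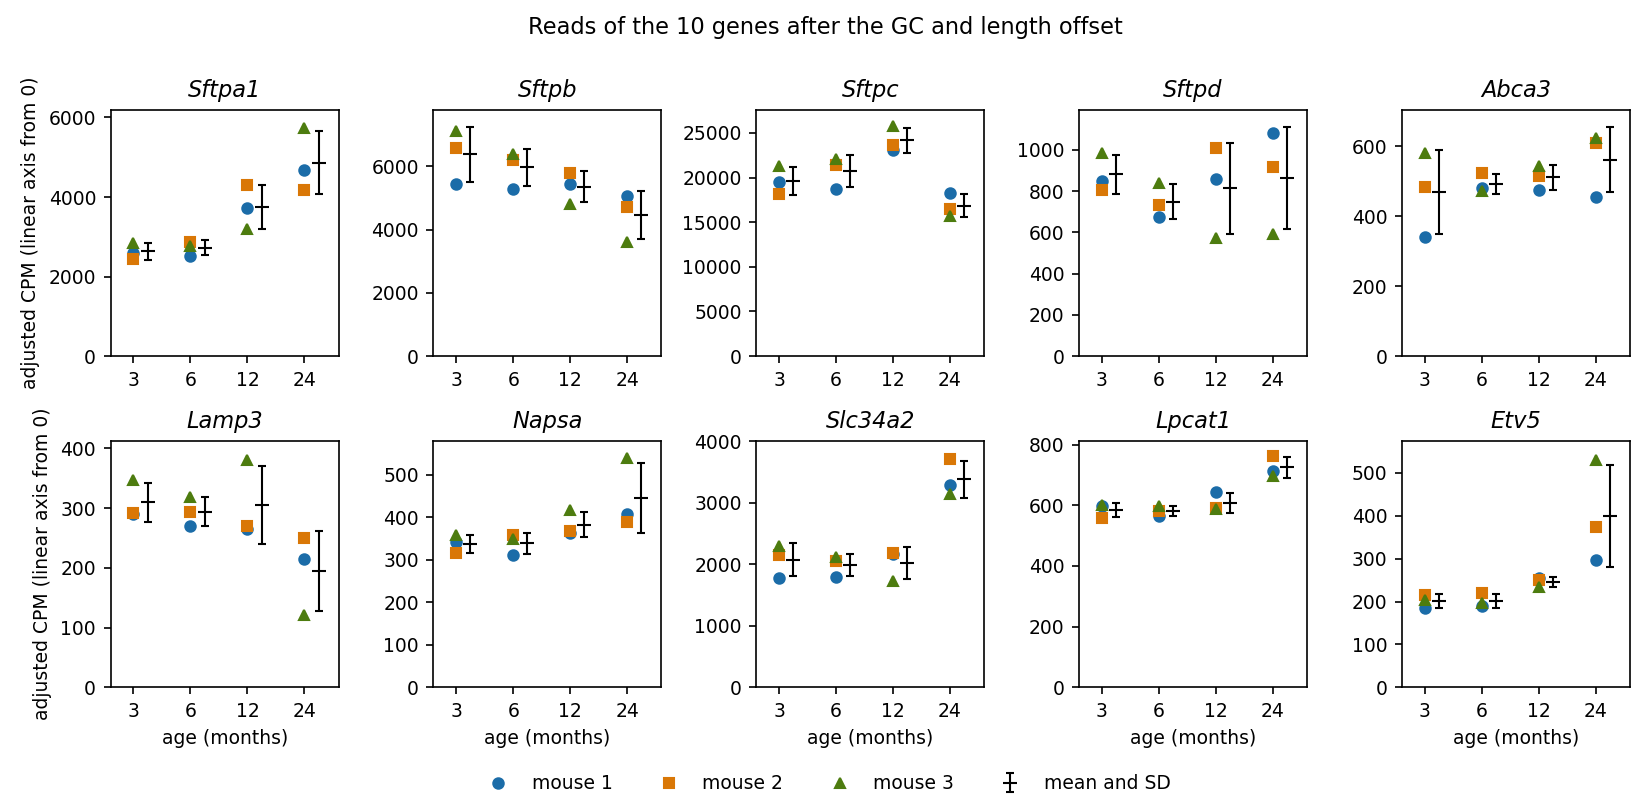
Levels of the 10 genes after the GC and length offset (adjusted CPM, linear axes from 0) in each of the 12 lungs by age in months, with the mean and SD of 3 mice in black. Etv5 is highest in the 3 mice of 24 months, Sftpc is highest at 12 months, and the 24-month values of Lamp3 lie below those of the younger mice.

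The genes around the 10 were read from lists of known function. At 24 against 3 months 38.2% of all genes were called higher and 44.6% lower, with a median log2 fold change of -0.29, and with the offset 30.3% and 28.2%, with a median of -0.01. Of 12 transcription factors of type 2 cells, 3 were higher and 7 lower at 24 than at 3 months (median -1.13), and with the offset 2 were higher and 7 lower (median -1.25). Foxa1, a forkhead factor of lung epithelium, averaged 10.8 ± 0.8 CPM at 24 months and 50.5 ± 3.4 CPM at 3 months (SD, n = 3 each). It fell without the offset (-2.22 ± 0.25, edgeR adjusted p = 8.8e-07) and with it (-3.46 ± 0.18, edgeR adjusted p = 2.6e-08), and it was already lower at 12 months (-0.83 ± 0.23, edgeR adjusted p = 0.029). Cebpa, a C/EBP factor of type 2 cell maturation, rose by 2.51 ± 0.31 without the offset and had 0.14 ± 0.11 with it (edgeR adjusted p = 0.27). Stat3 rose in both fits (0.93 ± 0.24 and 0.69 ± 0.12), and Nfib fell without the offset (-2.47 ± 0.25) but had 0.41 ± 0.21 with it (edgeR adjusted p = 0.11). Nkx2-1, chosen after its values were seen, had 0.41 ± 0.25 (edgeR adjusted p = 0.14) and fell with the offset (-1.34 ± 0.21, edgeR adjusted p = 0.00011).

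Of 18 other known markers of type 2 cells 4 rose and 13 fell at 24 months, against 38.2% higher and 44.6% lower among all genes, and their median was -1.78, against -0.29. With the offset 1 rose and 12 fell, against 30.3% higher and 28.2% lower among all genes (median -0.93, against -0.01). Egfl6, a secreted matrix protein, averaged 6.40 ± 1.38 CPM at 24 months and 74.8 ± 0.7 CPM at 3 months (-3.54 ± 0.24, edgeR adjusted p = 3.8e-08), and had -2.07 ± 0.16 with the offset. It was already lower at 12 months (-0.90 ± 0.21, edgeR adjusted p = 0.016). Lgi3, a secreted leucine-rich protein, rose without the offset (1.64 ± 0.26) and had -0.26 ± 0.12 with it (edgeR adjusted p = 0.069). Cd74, the invariant chain of MHC class II, rose in both fits (2.63 ± 0.33 and 1.03 ± 0.18). It is also made by leukocytes, of whose 8 markers 5 rose and 1 fell, and with the offset 5 rose and 0 fell. The 1 that fell was Ptprc (-2.40 ± 0.40, and 0.44 ± 0.20, not called, with the offset). The leukocyte markers had a summed level of 527 to 1041 CPM at 24 months, against 299 to 356 CPM at 3 months. Their share of reads was 0.0435 to 0.0542% against 0.0344 to 0.0428%. The part of leukocytes in the Cd74 level was not tested.

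Fgfr2, the receptor through which FGF ligands maintain type 2 cells, averaged 31.6 ± 5.9 CPM at 24 months, 111 ± 9 CPM at 12 months and 180 ± 23 CPM at 3 months. It fell at 24 months without the offset (-2.51 ± 0.20, edgeR adjusted p = 7.1e-08) and with it (-2.08 ± 0.13, edgeR adjusted p = 6.1e-08), while Etv5, which acts downstream of this receptor, was higher in both fits. At 12 months Fgfr2 was lower as well (-0.69 ± 0.19, edgeR adjusted p = 0.028, and -0.42 ± 0.12 with the offset, edgeR adjusted p = 0.028). Of the 14 genes of the FGF pathway, Etv5 not among them, 5 rose and 8 fell at 24 months, near the 38.2% and 44.6% of all genes, with a median of -1.04, against -0.29. With the offset 2 rose and 6 fell, against 30.3% and 28.2% of all genes (median -0.19, against -0.01). The lists are not separate: Fgfr2 is also counted among the other type 2 cell markers above, and Etv4 also among the transcription factors. The receptors Fgfr1 and Fgfr3 rose by 1.55 ± 0.22 and 1.63 ± 0.26 without the offset and had 0.06 ± 0.12 and -0.12 ± 0.13 with it. Spred1, an inhibitor of Ras signalling, fell by 2.81 ± 0.26 without the offset and had 0.10 ± 0.11 with it.

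Of 23 genes of surfactant lipid synthesis, 6 rose and 12 fell at 24 months (median -0.93), against 38.2% higher and 44.6% lower among all genes, and with the offset 9 rose and 5 fell (median 0.14), against 30.3% and 28.2%. Pcyt1a, the rate-limiting enzyme of phosphatidylcholine synthesis, fell in both fits (-2.06 ± 0.19 and -0.41 ± 0.11, edgeR adjusted p = 2.3e-07 and 0.0051). Elovl1, a fatty acid elongase (1.77 ± 0.22 and 1.08 ± 0.15), and Pgs1, of phosphatidylglycerol synthesis (1.82 ± 0.23 and 0.41 ± 0.15), rose in both. Chpt1, which completes phosphatidylcholine, fell by 2.00 ± 0.21 without the offset and rose by 0.85 ± 0.17 with it. Of 17 genes of lamellar body formation and surfactant processing, 7 rose and 9 fell (median -0.62), and with the offset 4 rose and 6 fell (median -0.03), in both fits near the shares of all genes. Rab3d, a GTPase of secretory vesicles, rose in both fits (1.89 ± 0.19 and 0.94 ± 0.12) and already at 12 months (0.67 ± 0.19, edgeR adjusted p = 0.030, and 0.68 ± 0.12 with the offset). P2ry2, the nucleotide receptor that triggers surfactant release, rose by 2.23 ± 0.26 and 0.47 ± 0.15. Zdhhc2, a palmitoyltransferase, fell by 3.90 ± 0.35 and 1.54 ± 0.34. It averaged 0.37 ± 0.18 CPM at 24 months, near the floor, and 5.71 ± 0.48 CPM at 3 months (SD), so the size of its fall is uncertain. Hps3, of lysosome-related organelle formation, fell without the offset (-2.69 ± 0.22) and had -0.22 ± 0.14 with it (edgeR adjusted p = 0.18).

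**Figure D5:**
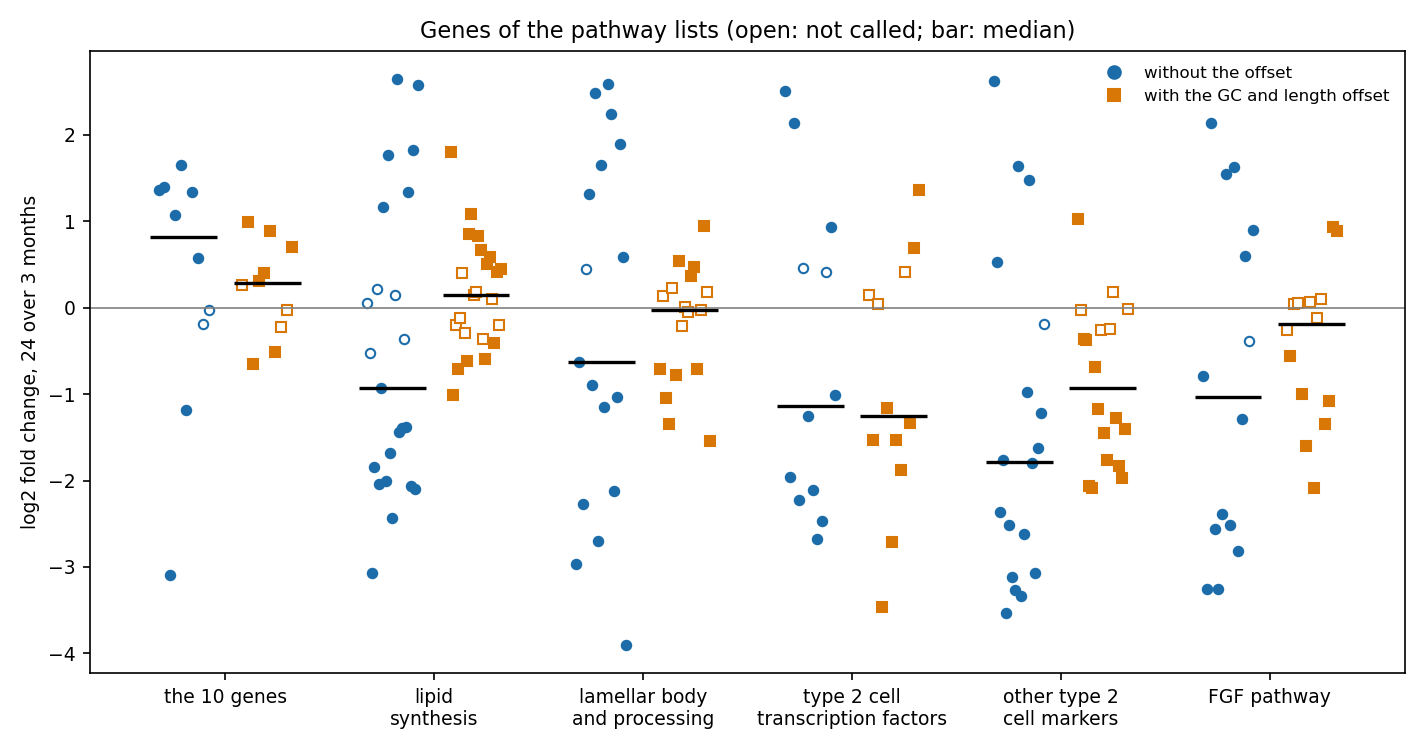
Log2 fold change of 24-month over 3-month lungs for each gene of 6 lists (x axis), from the reads as counted (blue circles) and with the GC and length offset (orange squares); open symbols did not pass the test and black bars are medians. The bars of the transcription factors (-1.13 and -1.25) and of the other type 2 cell markers (-1.78 and -0.93) lie below 0 in both fits. So do those of the FGF pathway (-1.04 and -0.19) and of the lamellar body list (-0.62 and -0.03). The bars of lipid synthesis are -0.93 and 0.14, and those of the 10 genes are 0.82 and 0.29. The median of all genes was -0.29 without the offset and -0.01 with it.

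Markers of other cells of the lung were read in every library at every age. Their levels are given as TMM-scaled sums and as plain shares of gene reads, since the scales differ at 24 months. Sums and shares are set mostly by the most abundant genes of a list. The counts that follow stand against 38.2% higher and 44.6% lower among all genes, and 30.3% and 28.2% with the offset. At 24 against 3 months, the sum of 10 type 1 cell markers was 10833 to 14636 CPM against 6866 to 7687 CPM. Of these markers 3 rose and 7 fell, and with the offset 2 rose and 5 fell. Their share of reads was 0.762 to 0.944% against 0.825 to 0.889%. Ager alone averaged 8046 CPM of a mean sum of 12303 CPM at 24 months, and 2421 of 7368 CPM at 3 months. It was among those that rose and had -0.21 ± 0.16 with the offset (edgeR adjusted p = 0.27). The sum of 8 endothelial markers was 6868 to 14752 CPM against 3447 to 3712 CPM. Of these 4 rose and 4 fell, and with the offset 2 rose and 4 fell. Their share was 0.567 to 0.768% against 0.396 to 0.446%. Vwf alone averaged 5841 CPM of a mean sum of 10514 CPM at 24 months, and 574 of 3547 CPM at 3 months. For 9 alveolar macrophage markers the sum was 495 to 727 CPM against 845 to 1008 CPM. Of these 2 rose and 7 fell, and with the offset 2 rose and 6 fell. Their share was 0.0379 to 0.0434% against 0.102 to 0.117%. Car4, 1 of the 2 that rose, averaged 377 CPM of a mean sum of 583 CPM at 24 months, and 152 of 949 CPM at 3 months. Among 8 ciliated cell markers 2 rose and 4 fell, and with the offset 1 rose and 4 fell. Their sum was nevertheless 1656 to 2460 CPM against 595 to 751 CPM, and their share 0.128 to 0.137% against 0.0716 to 0.0868%. Tppp3 and Foxj1, the 2 that rose, averaged 1305 and 559 CPM of a mean sum of 1951 CPM at 24 months. At 3 months they averaged 387 and 119 of 688 CPM. With the offset neither was called (0.18 ± 0.11 and 0.03 ± 0.17). Among 8 pan-epithelial genes 6 rose and 2 fell, and with the offset 3 rose and 2 fell. Their sum was 3123 to 4090 CPM against 1373 to 1636 CPM, and their share 0.213 to 0.258% against 0.165 to 0.189%. Among 8 club and airway secretory markers 5 rose and 2 fell, and with the offset 3 rose and 1 fell. Their sums overlapped, 18553 to 46798 CPM against 24721 to 35363 CPM, as did their shares, 0.966 to 3.86% against 2.97 to 4.09%. Among 8 fibroblast markers 4 rose and 4 fell, and with the offset 0 rose and 3 fell, with a sum of 4223 to 4385 CPM against 2573 to 3165 CPM and shares that overlapped, 0.220 to 0.362% against 0.296 to 0.366%. Among 6 heart muscle genes 5 rose and 0 fell, and with the offset 3 rose and 0 fell. Their sum was 645 to 1060 CPM against 287 to 525 CPM, while their shares overlapped, 0.0494 to 0.0859% against 0.0331 to 0.0607%. The sum of the 10 genes themselves was 40373 to 47412 CPM against 26542 to 31373 CPM, whereas their share of reads was 2.47 to 3.41% against 3.19 to 3.61%. The part of these cells in the results was not tested.

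Within an age the 10 genes did not vary as 1 unit. After the mean of each age was subtracted, the 45 pairs of genes had a median r of 0.07 over the 12 libraries, 11 pairs were above 0.5 and 22 below 0. In the 9 libraries up to 12 months the median was 0.29, with 16 pairs above 0.5. The members nearest to the mean of the 10 were Slc34a2 (r = 0.84) and Lpcat1 (0.74), and Sftpc (-0.01), Lamp3 (-0.03) and Napsa (-0.12) had the lowest values. Each member is itself part of that mean, whereas the genes named next are not. Other genes among those most like that mean, of the genes with at least 10 CPM, were Plekhg3 (0.97), Tnfrsf21 (0.95), Atp7b (0.95) and Rnf169 (0.94). These correlations are descriptions, since the libraries also differ in GC content and depth, whose part in them was not tested.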

How the data were processed

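The deposited table held whole-number counts of reads per gene for each of the 12 libraries, per the file headers, and these counts were the values tested. FPKM of each library and each age had been computed by the authors. FPKM recomputed from the counts and gene lengths matched all 235411 values above 0 within a relative tolerance of 1e-04. Mean signal per age (scaled reads) for each comparison was deposited by the authors and not used, and 2 further columns of it, repeats for the 3-month group, were set aside. Log2 fold changes, p-values and adjusted p-values against 3 months were deposited by the authors and are printed only where named. The submitters' processing notes name TopHat, STAR 2.5, HTSeq 0.6.1 and build mm10. How strand and reads shared between genes were treated is not stated in the labels or headers.

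From there, filterByExpr left 16042 genes, libraries were scaled with TMM, and a robust quasi-likelihood F test was fitted with edgeR to all 12 libraries (edgeR 4.0.16, R 4.3.3). P-values were Benjamini-Hochberg adjusted over all genes of a comparison, with a threshold of 0.05. The SE is the absolute log2 fold change over the root of F. CPM used TMM library sizes. GC content was that of the longest GENCODE M21 transcript (97.8% of gene IDs had one). The offset was a tensor-product smooth (mgcv 1.9.3, 8 basis functions per axis) of log2 reads on GC content and log2 gene length, fitted in each library. The fit was tested on simulated data. Alternatives were RLE scaling, library totals as the scale, DESeq2 1.42.0, filters, a replicate block, the offset, other definitions of GC content and leaving out libraries.

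All 10 members were described in each comparison. From each of the 5 pathway lists the up to 2 called genes in each direction with the smallest p at 24 against 3 months were named, and likeness was Pearson's r with the members' mean after subtracting the mean of each age. One gene that this likeness rule picks is not reported here. The members and lists were chosen with earlier results of these data known. Counting intervals are not given, since the depth was 14.7 to 21.2 M gene reads and the spread between mice sets the precision.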

Additional observations from a re-analysis of the deposited data

How the results depend on the processing

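RLE scaling and DESeq2 gave the same numbers of members called as TMM with edgeR, 8, 1, 0 and 7 at 24, 12 and 6 against 3 months and at 24 against 12 months. In the same order, 13299, 2059, 0 and 12890 of 16042 genes were called with RLE scaling. With DESeq2 these were 13400, 3496, 6 and 13029 of 16031 genes. Under RLE scaling the median log2 fold change of all genes at 24 against 3 months was -0.17 in place of -0.29. With library totals as the scale, Sftpc had -0.18 at 24 against 3 months in place of 0.57. On that scale 0 members were called at 12 against 3 months, against 1628 of 16042 genes. The causes of the changes below were not tested. At 24 against 3 months the offset turned the sign of 4 values, not all of them called in both fits. For Sftpa1 it gave 0.89, 0.88 with the replicate block as well, and 1.09 with the longest coding transcript, in place of -1.19. The sign was not turned for Sftpa1 with the mean GC content of all transcripts (-0.01, not called) or with its short transcript (-1.77, called). For Sftpb the offset gave -0.52, also with the block, and -0.41 and -0.42 with the mean GC content of all transcripts and the longest coding transcript, in place of 1.33. For Sftpc the offset gave -0.22, which was not called, -0.22 with the block, -0.24 and -0.18 with these definitions, in place of 0.57. For Slc34a2 the offset gave 0.71, 0.71 with the block and 0.82 with the longest coding transcript, in place of -0.03, which was not called. With the mean GC content Slc34a2 had 0.32 and was not called. At 24 against 12 months Sftpa1 had 0.38, 0.37 with the block and 0.55 with the longest coding transcript, in place of -1.40, but -0.35 with the mean GC content and -1.59 with its short transcript. Sftpb had -0.27, -0.27 with the block, -0.20 with the mean GC content and -0.19 with the longest coding transcript, in place of 1.09.

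At 12 against 3 months the number of members called, 1, became 0 without a filter, with the replicate block, and under the offset with the mean GC content or the short Sftpa1 transcript. Without a filter 2197 of 24086 genes were called there, and under those offsets 2753 and 2823 of 15949 genes. The number of members called was 2 without the 24-month libraries, with or without the offset, and 0 to 2 when 1 mouse was left out. Genes called there, 2433, became 1587 with the block, 3962 from the libraries of these 2 ages only, 5748 and 4710 without the 24-month libraries (without and with the offset), and 302 to 5928 when 1 mouse was left out, the lowest without 3-month mouse 2 and the highest without 24-month mouse 3. At 6 against 3 months 0 genes became 6 with DESeq2, 2 without a filter, 1 from these 2 ages only, 1 under each offset with all libraries, and 0 to 1 with 1 mouse left out. At 24 against 12 months the 7 members became 5 with the offset, 4 with the block and the offset together, 8 with the mean GC content and 7 with the longest coding transcript, and 12791 genes became 7092 with the offset, 6819 with the block and offset, 7213 with the mean GC content and 6906 with the longest coding transcript.

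The replicate numbers did not pair the mice: 18 pairs of the same number at different ages had a median r of -0.05, and 4 were above 0.1. With the replicate block 8, 0, 0 and 7 members were called, against 13130, 1587, 0 and 12638 of 16042 genes. When 1 mouse was left out, members called at 24 against 3 months were 7 or 8, and 5 to 7 with the offset. Genes called were then 12827 to 13707, and 8154 to 9698 with the offset. Depth limits none of these genes, as the least abundant, Lamp3 at 24 months, had 200 reads or more in a library.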
